A study of Mus musculus with 6 samples.

Results

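Tendon connects muscle to skeleton, and the 7 genes described here are those most often used to follow its formation: the transcription factors Scx, Mkx, Egr1 and Egr2 and the matrix or membrane genes Tnmd, Thbs4 and Tnc. They were matched by symbol, and each of the 7 symbols matched 1 of the 56691 gene identifiers in the count files. Their RNA was measured by bulk RNA-seq in the anterior and the posterior region of the secondary palate of C57BL/6J mouse embryos at E14.0, with 3 libraries per region. The embryos were unmanipulated, each region is the portion at that end of palatal shelves cut crosswise into 3, and the study describes the libraries as biologically independent samples. The number of embryos behind a library is not given in the sources used here. The posterior region carries far more skeletal muscle RNA than the anterior region, and the question asked was whether the tendon genes follow that bias.

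Tendon cells differentiate beside muscle. Scx encodes a basic helix-loop-helix factor that marks tendon and ligament progenitors, and in the head its domain lies next to the forming muscles. TGF-beta signalling induces and maintains it. Mkx, a homeobox factor, and the zinc-finger factors Egr1 and Egr2 act later, on collagen genes of the tendon matrix. Tnmd (tenomodulin) is a membrane protein of differentiated tendon cells, and Scx is known to drive it. Thbs4 (thrombospondin 4) sits at the muscle-tendon junction. Tnc (tenascin C) is a large matrix glycoprotein of tendon that many other embryonic mesenchymes also make.

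The 3 genes that passed the test did not share a direction. Thbs4 was 8.09-fold and Mkx 1.52-fold higher in the posterior palate, and Tnmd was 5.04-fold higher in the anterior palate. Scx was 2.03-fold higher in the posterior palate on average and did not pass, and Tnc, Egr1 and Egr2 did not pass either. Calls were made at an adjusted p below 0.05, from edgeR's quasi-likelihood test with Benjamini-Hochberg adjustment over the 15673 genes that reached 10 counts in 3 or more libraries, and all 7 tendon genes did so. Of all genes tested, 7.46% were called, 4.87% higher in the posterior and 2.59% higher in the anterior palate. Of the 7 tendon genes, 2 were called higher in the posterior and 1 in the anterior palate. The 2 regions had values without overlap for 4 of the 7 genes, Scx, Mkx and Thbs4 (posterior higher) and Tnmd (anterior higher), as for 28.0% of all genes tested, 14.7% with the posterior and 13.3% with the anterior palate higher. For each of these 4 the two-sided exact permutation test gave p = 0.1, the smallest that 3 against 3 libraries allow. Levels are CPM, read counts scaled to a common library size after TMM normalization, differences are log2 fold changes of posterior over anterior palate with their standard error (SE), and fold values are those fitted by the model.

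**Figure D1:**
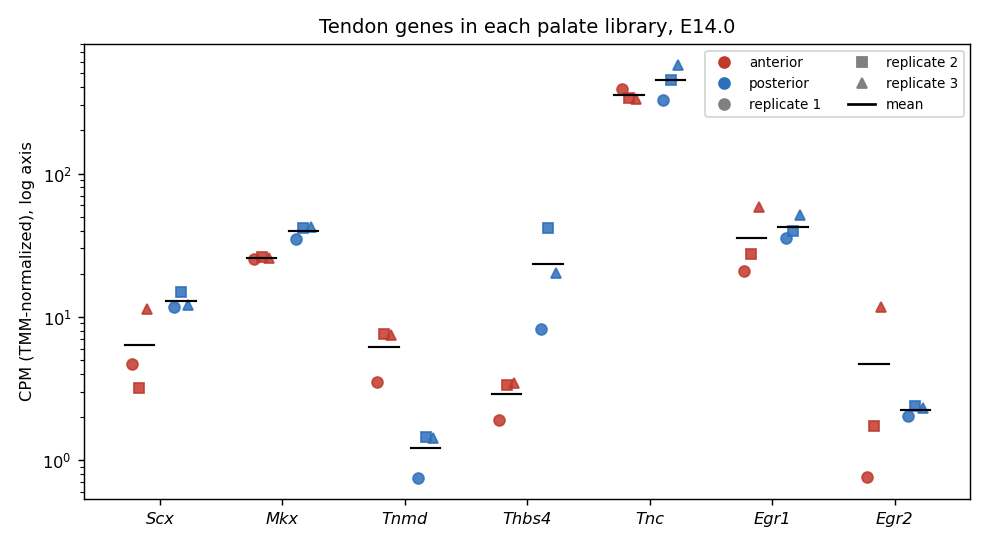
CPM of the 7 tendon genes (log axis) in each of the 3 anterior (red) and 3 posterior (blue) libraries, with symbols for the replicates and a line at the mean. The posterior libraries lie above the anterior ones for Scx, Mkx and Thbs4 and below them for Tnmd, and anterior replicate 3 holds the highest value of Egr1 and Egr2.

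The libraries held 11378736 to 15172733 reads counted on genes, so that 3 counts, the limit that a count of 0 allows for counting error alone, corresponded to 0.198 to 0.264 CPM before TMM scaling. Shox2, a homeobox gene known from the anterior palate, had a mean of 386 CPM in the anterior and 11.7 CPM in the posterior palate, and Meox2, known from the posterior palate, had 7.81 and 192 CPM. Posterior replicates 2 and 3 stood apart from the other 4 libraries. Mitochondrial transcripts made up 0.973% and 1.14% of their counts, against 2.70% to 2.97% elsewhere, and 6.12% and 5.94% of their reads mapped to several places, against 8.45% to 8.77%. Since both are posterior, this difference cannot be told apart from the region within them, and a fit with a term for these library groups takes the region difference from posterior replicate 1. In bulk samples, fewer cells of a type and less RNA per cell cannot be told apart.

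Among the transcription factors, Scx (ENSMUSG00000034161.9) lies on chromosome 15 of GRCm38, from 76457452 to 76459458 on the plus strand, inside the gene Bop1 on the other strand. No exonic base is shared, and Bop1, which acts in ribosome assembly, had 47.3 to 54.6 CPM in the 6 libraries. In anterior replicates 1, 2 and 3 Scx had 4.70, 3.19 and 11.3 CPM, and its posterior libraries had 11.7, 14.8 and 12.2 CPM in the same order. The regions did not overlap, but anterior replicate 3 lay just under the lowest posterior library and well above the other anterior libraries. Its log2 fold change was 1.02 (SE 0.42, adjusted p = 0.182, edgeR). The unadjusted p was 0.0421 by edgeR, and 25.2% of all genes tested had an unadjusted p below 0.05. Without anterior replicate 3 the log2 fold change was 1.70 and passed, with an adjusted p of 0.0182. It was 0.84 without anterior replicate 1, 0.69 without anterior replicate 2 and 0.91 without posterior replicate 2 (adjusted p = 0.425, 0.423 and 0.429). On the unstranded counts it was 1.02 as well.

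Mkx (ENSMUSG00000061013.7), the Mohawk homeobox gene on chromosome 18 from 6934518 to 7004780, shares 201 of its 4095 exonic bases with AC148004.2 on the same strand, which had 0 counts in each library. Mkx had 25.4, 26.3 and 25.9 CPM in anterior replicates 1, 2 and 3, and 34.7, 41.6 and 42.1 CPM in the posterior ones. The regions did not overlap, and the anterior libraries differed by a factor of at most 1.03. Mkx differed by 0.61 on the log2 scale (SE 0.11, adjusted p = 0.0176, edgeR). The fits with fewer libraries kept a value of 0.56 to 0.70. The call was lost without anterior replicate 1, 2 or 3 (0.59, 0.62 and 0.61, adjusted p = 0.0977, 0.0933 and 0.0754) and without posterior replicate 2 or 3 (0.57 and 0.56, adjusted p = 0.0888 and 0.0662), but not without posterior replicate 1 (0.70, adjusted p = 0.000287).

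Egr1 (ENSMUSG00000038418.8; chromosome 18, 34859823 to 34864984) encodes a growth-factor-responsive and stretch-responsive factor that also belongs to the immediate-early genes, which many cell types switch on within minutes of a stimulus. It had 20.9, 27.3 and 58.0 CPM in anterior replicates 1, 2 and 3, and 35.3, 39.9 and 51.5 CPM in the posterior ones. The posterior values lay within the anterior range, since anterior replicate 3 was the highest of the 6. With a log2 fold change of 0.26 the regions were not told apart (SE 0.36, adjusted p = 0.661, edgeR). It was -0.013 without anterior replicate 1 and 0.81 without anterior replicate 3, and passed in neither case.

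Egr2 (ENSMUSG00000037868.16; chromosome 10, 67535475 to 67542188) is also known as Krox20, a factor of hindbrain segments and of myelinating Schwann cells as well as of tendon. It had 0.757, 1.74 and 11.7 CPM in anterior replicates 1, 2 and 3, from 10, 24 and 135 counts. In the posterior replicates it had 2.02, 2.38 and 2.33 CPM. The anterior libraries thus spanned a 15.4-fold range around posterior values that differed by a factor of 1.18. The log2 fold change of -1.05 (SE 0.87, adjusted p = 0.46, edgeR) rests on anterior replicate 3, and was 0.83 without it (adjusted p = 0.335).

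Other genes of the Egr family and its partners were read beside these 2. Egr3 had 1.59 and 2.47 CPM in anterior replicates 1 and 2, 80.6 CPM in anterior replicate 3, and 0.822 to 2.38 CPM in the posterior palate. It was not called (log2 fold change -4.13, SE 1.51, adjusted p = 0.147). Egr4 had no more than 0.0720 CPM in a library. The corepressors Nab1 and Nab2, which bind Egr proteins, were level, at 40.5 to 47.1 and 57.9 to 72.5 CPM. Anterior replicate 3 was thus the library with the highest Egr1, Egr2 and Egr3.

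Of the 20 immediate-early genes other than Egr1 and Egr2, 19 were tested and 2 were called, Jun and Ccn1, both higher in the posterior palate. That number was 0 without anterior replicate 1 or 2, 1 without anterior replicate 3, posterior replicate 2 or posterior replicate 3, and 4 without posterior replicate 1. The summed level of the 20 was 820 to 858 CPM in the anterior and 944 to 988 CPM in the posterior libraries, with 858 CPM in anterior replicate 3. Fos, the best known of them, had 9.50 CPM in that library against 5.76 and 5.08 CPM in the other anterior ones, and Fosb had 2.16 CPM against 1.29 and 1.02 CPM. In the posterior palate Fos had 4.41 to 12.5 CPM and Fosb 1.12 to 3.22 CPM. Dental mesenchyme genes that the study names, and which were read here after the Egr values were seen, were also highest there among the anterior libraries. Tfap2b had 117 CPM there against 1.97 and 15.4 CPM in anterior replicates 1 and 2 and 2.39 to 3.60 CPM in the posterior palate. Dlx2 had 52.0 CPM there against 9.85 and 16.3 CPM, with 17.3 to 19.9 CPM in the posterior palate, and Sostdc1 had 144 CPM there against 61.3 and 89.2 CPM, with 78.2 to 107 CPM in the posterior palate. Fgf4, a ligand of the tooth signalling centre and of tendon induction, had 29 counts there and none in the other 2 anterior libraries, and 3, 7 and 16 counts in posterior replicates 1, 2 and 3. The summed level of the glial markers was 71.0 CPM in anterior replicate 3 and 74.2 and 78.3 CPM in the others. The part of dental or glial tissue, or of an immediate-early response, in the Egr levels was not tested.

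Among the matrix and membrane genes, Tnmd (ENSMUSG00000031250.9; chromosome X, 133850980 to 133865577) went against the muscle bias. It had 3.48, 7.54 and 7.43 CPM in anterior replicates 1, 2 and 3, and 0.747, 1.44 and 1.44 CPM in the posterior ones, from 46, 104 and 86 counts and from 10, 20 and 21 counts. The lowest anterior library was above the highest posterior library. For Tnmd the log2 fold change was -2.33 (SE 0.40, adjusted p = 0.0133, edgeR). The call was lost without anterior replicate 2 (-2.16, adjusted p = 0.0625), without anterior replicate 3 (-2.18, adjusted p = 0.0552) and without posterior replicate 2 (-2.47, adjusted p = 0.0521), and the other fits without 1 library gave -2.62 to -2.08. With the library-group term, which rests on posterior replicate 1, it was -3.02 (adjusted p = 0.0188). The closest relative of Tnmd, the cartilage gene Cnmd (chondromodulin), had 1.42 to 2.59 CPM in all 6 libraries, with a log2 fold change of -0.044 (SE 0.33, adjusted p = 0.941).

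Tnmd was also read against Scx, its known activator. In the anterior libraries the CPM of Tnmd was 0.742, 2.36 and 0.656 times that of Scx, and in the posterior libraries 0.0641, 0.0971 and 0.118 times. This ratio was formed after the values were seen and is given as a description, and the difference between the 2 genes was not tested.

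Thbs4 (ENSMUSG00000021702.8; chromosome 13, 92751590 to 92794818) had the largest difference of the 7 in the fit reported here, but not with the library-group term or without posterior replicate 2, where that of Tnmd was larger. Thbs4 had 1.89, 3.34 and 3.45 CPM in anterior replicates 1, 2 and 3, and 8.22, 41.7 and 20.3 CPM in the posterior ones. All posterior libraries were above all anterior ones, and they spanned a 5.08-fold range. On the log2 scale the change was 3.02 (SE 0.59, adjusted p = 0.0227, edgeR). It was 2.30 without posterior replicate 2, the highest library, and still passed (adjusted p = 0.0461). Without anterior replicate 1, 2 or 3 the values were 2.78, 3.13 and 3.15 and the call was lost (adjusted p = 0.107, 0.0965 and 0.0855), as it was without posterior replicate 3 (3.12, adjusted p = 0.0551). Without posterior replicate 1 it was 3.42 (adjusted p = 0.000194). With the library-group term it was 1.51, and not called (adjusted p = 0.0955), so that its size depends on posterior replicates 2 and 3.

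Posterior replicate 2, which had the highest Thbs4, was also rich in neuronal RNA. The 8 neuronal markers summed to 379 CPM there, against 76.3 and 46.3 CPM in posterior replicates 1 and 3 and 39.9 to 46.5 CPM in the anterior palate, and no marker was at 0 in a library. Without that library the log2 fold change of Thbs4 was 2.30 in place of 3.02 (adjusted p = 0.0461, edgeR). Whether neuronal tissue has a part in the level of Thbs4 was not tested.

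Tnc (ENSMUSG00000028364.16; chromosome 4, 63959785 to 64047015) was the most abundant of the 7. It shares 176 exonic bases with 8030451A03Rik on the other strand, which had 1 to 7 counts per library. Tnc had 391.6, 336 and 330.4 CPM in anterior replicates 1, 2 and 3, and 325, 451 and 576 CPM in the posterior ones. Posterior replicate 1 was the lowest of the 6 libraries and posterior replicate 3 the highest, so the regions overlapped. Its log2 fold change was 0.35 (SE 0.20, adjusted p = 0.307, edgeR). It was 0.55 and called without posterior replicate 1 (adjusted p = 0.00604), a fit that called 7119 genes in all, and it was -0.12 with the library-group term. With a correction for transcript length it was 0.13. Tnc has 7772 exonic bases, the most of the 7.

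Per kilobase of exon, where levels can be set against each other between genes, the order of the 7 genes differed between the regions. In the anterior palate it was Tnc (45.4 ± 4.34 CPM per kb, SD, n = 3), Egr1 (7.90 ± 4.43), Mkx (6.32 ± 0.0998), Tnmd (4.55 ± 1.71), Scx (3.19 ± 2.15), Egr2 (1.39 ± 1.77) and Thbs4 (0.880 ± 0.264). In the posterior palate it was Tnc (57.9 ± 16.1), Mkx (9.63 ± 1.01), Egr1 (9.43 ± 1.86), Thbs4 (7.11 ± 5.16), Scx (6.42 ± 0.851), Tnmd (0.893 ± 0.295) and Egr2 (0.659 ± 0.0574). Thbs4 had rank 7 in the anterior and rank 4 in the posterior palate. The libraries of neighbours in these orders overlapped, except between Tnc and the gene after it in both regions, between Mkx and Tnmd in the anterior and between Scx and Tnmd in the posterior palate.

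To show the promoters of the matrix genes that differed most and of the most abundant one, the 250 bases before the start are printed from RefSeq (GRCm38.p6), 5′ to 3′ on the gene's own strand. The table used held a promoter of 4 of the 7 genes. Capitals mark matches, on either strand, to CANNTG, the E-box that basic helix-loop-helix factors such as Scx bind, to GCGNGGGCG, the site of Egr factors, and to TAATTA, a core of homeobox factors. None of these 3 motifs overlapped another here.
Tnmd, chrX:133850758-133851007, plus strand: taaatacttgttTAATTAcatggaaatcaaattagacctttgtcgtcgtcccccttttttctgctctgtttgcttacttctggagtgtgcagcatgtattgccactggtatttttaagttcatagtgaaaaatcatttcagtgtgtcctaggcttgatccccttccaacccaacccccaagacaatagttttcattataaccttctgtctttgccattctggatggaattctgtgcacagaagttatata
Thbs4, chr13:92794819-92795068, minus strand: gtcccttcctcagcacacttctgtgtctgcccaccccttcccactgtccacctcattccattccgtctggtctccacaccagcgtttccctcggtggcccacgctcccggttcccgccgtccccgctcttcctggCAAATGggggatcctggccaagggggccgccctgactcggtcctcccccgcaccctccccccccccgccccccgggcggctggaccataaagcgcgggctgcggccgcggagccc
Tnc, chr4:64047016-64047265, minus strand: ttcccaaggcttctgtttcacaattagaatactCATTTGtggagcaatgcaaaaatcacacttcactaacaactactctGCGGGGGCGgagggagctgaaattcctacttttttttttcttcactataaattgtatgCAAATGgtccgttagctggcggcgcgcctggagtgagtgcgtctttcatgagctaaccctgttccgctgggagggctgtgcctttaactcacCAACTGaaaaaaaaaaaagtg

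The 3 windows differed in make-up. Tnmd, the gene higher in the anterior palate, had 38.4% G and C, no E-box and 1 TAATTA, whose first base is at position -238 from the start. The RefSeq start lies 28 bases inside the first exon of M21. Thbs4, higher in the posterior palate, had 70.8% G and C and 1 E-box. Tnc had 44.8% G and C, 3 E-boxes and 1 Egr site, whose first base is at position -171. Among 32841 promoters of the same length, 66.2% held an E-box, 4.7% the Egr site and 4.84% TAATTA. These matches describe letters and not binding.

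The skeletal muscle list of 24 regulators and contractile genes gave the muscle bias itself. All 23 of its genes tested were called, 22 higher in the posterior palate and 1, Pax3, higher in the anterior palate. The median log2 fold change was 5.63, against -0.0040 over all genes tested. Genes near 0 in the anterior palate, such as Myod1 and Smyd1, reached the count filter only through the posterior libraries. Being tested thus presupposed a posterior level for them, so the share called is no separate support for the bias. With 10 counts required in every library 11 were called. The number was 16 without posterior replicate 1, 2 or 3, and 23 without anterior replicate 1, 2 or 3. Myh3, an embryonic myosin, had 1.09 to 2.07 CPM in the anterior and 162 to 359 CPM in the posterior libraries, and cardiac actin Actc1 had 1.21 to 2.33 and 161 to 248 CPM. The muscle regulator Myod1 and the methyltransferase gene Smyd1, which had the largest fitted changes, were at most 0.145 and 0.173 CPM in the anterior libraries and at least 19.2 and 17.7 CPM in the posterior ones. The summed level of the list was 51.7 to 61.0 CPM in the anterior and 861 to 1499 CPM in the posterior palate.

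**Figure D2:**
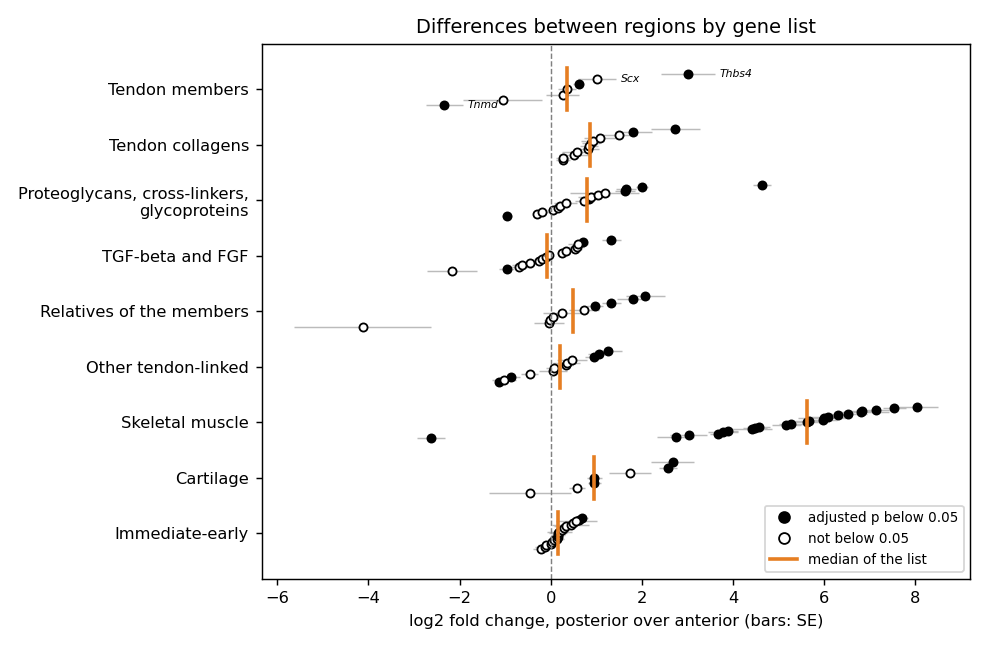
Log2 fold change, posterior over anterior palate, of each tested gene by list (points, bars are SE), filled where the adjusted p was below 0.05, with the list median in orange. The muscle list has its median at 5.63, while the 7 tendon genes run from -2.33 (Tnmd) to 3.02 (Thbs4) around a median of 0.35.

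Set against the summed muscle transcripts within each library, 6 of the 7 tendon genes were lower in all posterior libraries than in all anterior ones, as were 98.8% of all genes tested. The muscle sum itself was higher by 4.41 on the log2 scale in the posterior palate, so that a gene with equal CPM in both regions falls by that much, and the count says nothing particular to the tendon genes. The log2 ratio of Scx to the muscle sum went from -3.31 ± 0.81 (SD, n = 3) in the anterior to -6.48 ± 0.56 in the posterior palate, a difference of -3.17. The difference was -3.78 for Mkx, -6.71 for Tnmd, -4.06 for Tnc, -4.00 for Egr1 and -4.53 for Egr2. For each of the 6 the two-sided exact permutation test over libraries gave p = 0.1, the smallest that 3 against 3 libraries allow. Thbs4 did not separate. The log2 ratio of Thbs4 was -4.79, -3.95 and -4.14 in the anterior libraries (replicates 1 to 3) and -7.13, -4.37 and -6.21 in the posterior libraries, a difference of -1.61 with overlap (exact permutation p = 0.2). In the anterior palate Pax3, which cranial neural crest also expresses, made up 28.1 to 32.8 CPM of the muscle sum. With the 12 contractile genes alone as the measure of muscle (15.7 to 21.6 CPM in the anterior and 670 to 1262 CPM in the posterior libraries), the difference was -2.94 for Thbs4 and 7 of the 7 genes were lower without overlap, as were 99.3% of all genes tested. That sum was higher by 5.74 on the log2 scale in the posterior palate.

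**Figure D3:**
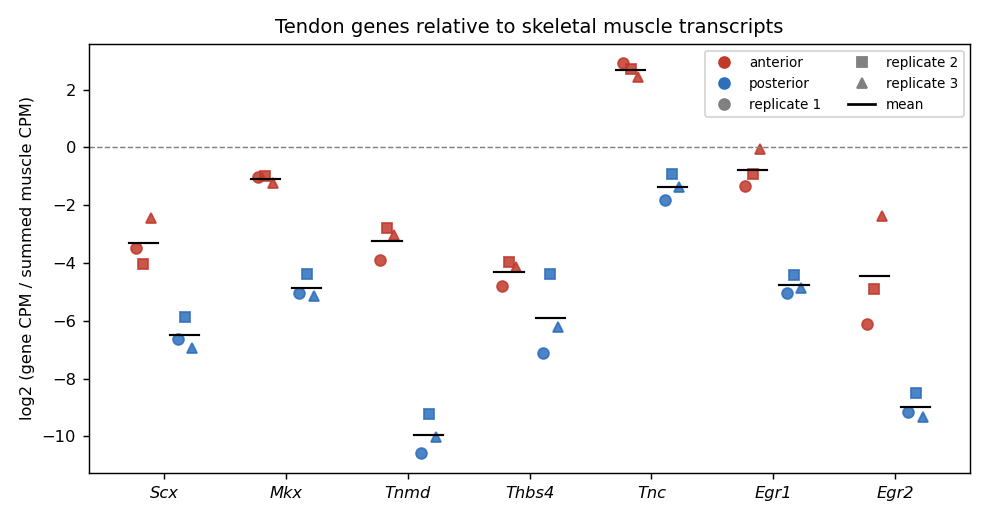
Log2 ratio of each tendon gene's CPM to the summed CPM of the 24 muscle genes in each library (red anterior, blue posterior, lines are means). The posterior ratios lie below the anterior ones for 6 genes, as for 98.8% of all genes tested, but not for Thbs4, whose posterior replicate 2 (-4.37) falls among the anterior libraries.

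Within the posterior palate the muscle sum was 1151, 861 and 1499 CPM in replicates 1, 2 and 3, lowest in replicate 2. Thbs4 and Scx were highest in replicate 2, at 41.7 and 14.8 CPM, and so, narrowly, were Tnmd and Egr2, while Mkx, Tnc and Egr1 were highest in replicate 3, as muscle was, at 42.1, 576 and 51.5 CPM. Of Osr1, Osr2, Tcf7l2 and Tbx3, which mark fibroblasts inside and around muscle, Osr1 was called, and it was higher in the anterior palate (log2 fold change -0.55, SE 0.10, adjusted p = 0.0174, edgeR). That call was lost with the length correction and without anterior replicate 1, 2 or 3 or posterior replicate 2. Tcf4 stood in the same list, but this symbol is that of a widely expressed helix-loop-helix gene and not of the connective tissue marker, whose gene is Tcf7l2, so no count or median of that list is given.

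Among the closest relatives of the 7 genes, the other thrombospondins were read first. Thbs1 had 55.4 to 58.3 CPM in the anterior and 95.1 to 180 CPM in the posterior libraries (log2 fold change 1.33, SE 0.22, adjusted p = 0.0105, edgeR). Thbs2 had 94.8 to 145 and 209 to 729 CPM (2.08, SE 0.42, adjusted p = 0.0262), and Thbs3 had 29.5 to 34.8 and 47.7 to 75.8 CPM (0.97, SE 0.17, adjusted p = 0.0162). Comp, the fifth thrombospondin and a cartilage and tendon gene, had 0.454 to 1.05 CPM and was not called (0.73, SE 0.33, adjusted p = 0.213). Among the tenascins, Tnn, a relative of Tnc found in bone-forming and dense connective tissue, had 38.2 to 57.6 CPM in the anterior and 92.6 to 255 CPM in the posterior libraries (1.80, SE 0.35, adjusted p = 0.0221). Tnr and Tnxb were too low to be tested. Tcf15, the closest helix-loop-helix relative of Scx, had 0.753 to 1.80 CPM and was not called. Of the 10 relatives and cofactors of the 7 genes that were tested, 4 were called, and all 4 were higher in the posterior palate. Without anterior replicate 1, 2 or 3, or without posterior replicate 2, that number was 0, and without posterior replicate 3 it was 3.

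Col12a1, which also has a profile close to that of Thbs4 and which encodes a fibril-associated collagen of tendon and of dense connective tissue, had 199 to 326 CPM in the anterior libraries. It had 521, 2174 and 2417 CPM in posterior replicates 1, 2 and 3 (log2 fold change 2.73, SE 0.53, adjusted p = 0.0230, edgeR). Of the 12 tendon collagens 3 were called, all higher in the posterior palate, the others being Col5a3 (1.81, SE 0.41, adjusted p = 0.0393) and Col3a1 (0.88, SE 0.20, adjusted p = 0.0415). Under DESeq2 8 of the 12 were called, as were 8 by edgeR with no low-count filter. Col1a1, the main collagen of tendon and bone, had 3893 to 5082 CPM in the anterior and 6374 to 9888 CPM in the posterior libraries and lay at the threshold (0.84, SE 0.20, adjusted p = 0.0503). The list had a median of 0.86, and its 12 genes summed to 14140 to 15242 CPM in the anterior palate. The posterior sums were 18460, 27779 and 34200 CPM in replicates 1, 2 and 3, highest in the 2 libraries that stood apart, and without posterior replicate 1 all 12 were called, and without any other single library the 3 calls were lost.

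Small proteoglycans and the proteins that bind or cross-link collagen were called in both directions. Of 16 such genes 5 were higher in the posterior palate: Kera (4.63, SE 0.20, adjusted p = 9.65e-05), Tgfbi (2.00, SE 0.12, adjusted p = 0.000194), Postn (1.65, SE 0.23, adjusted p = 0.00530), Aspn (1.63, SE 0.21, adjusted p = 0.00442) and Lum, all by edgeR. Kera (keratocan), best known from cornea and also found in tendon, had 3.05 to 4.47 CPM in the anterior and 74.4 to 100.04 CPM in the posterior libraries. Fmod (fibromodulin), which controls the width of tendon collagen fibrils, was the gene higher in the anterior palate. It had 40.4, 38.4 and 43.6 CPM in anterior replicates 1, 2 and 3 and 22.4, 21.7 and 19.1 CPM in the posterior ones (-0.95, SE 0.11, adjusted p = 0.00280). Fmod and Tnmd thus shared a direction opposite to that of Kera. Without posterior replicate 1, 11 genes of this list were called. Dcn and Bgn, the most general of these proteoglycans, were not called (-0.18 and 0.20).

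Of the TGF-beta and FGF genes, the signals that act on tendon progenitors, 16 were tested and 3 were called by edgeR. Under DESeq2 7 were called, as were 7 by edgeR with no low-count filter. The ligand gene Tgfb2 had 54.8, 40.3 and 76.2 CPM in anterior replicates 1, 2 and 3 and 152, 128 and 151 CPM in the posterior ones (log2 fold change 1.33, SE 0.22, adjusted p = 0.0110, edgeR). The receptor gene Tgfbr2 rose from 113 to 129 CPM in the anterior to 168 to 206 CPM in the posterior libraries (0.70, SE 0.12, adjusted p = 0.0112). Tgfb1 went the other way, with 65.3 to 85.1 CPM in the anterior and 29.8 to 43.1 CPM in the posterior libraries (-0.96, SE 0.17, adjusted p = 0.0147). The signal transducer Smad3 was not called (-0.047, SE 0.089). The 6 FGF targets in the list, Etv4, Etv5, Spry1, Spry2, Spry4 and Dusp6, were not called by edgeR (adjusted p = 0.0590 to 0.330). Of these, 5 had an unadjusted p below 0.05. Among them Etv4, Etv5, Dusp6 and Spry2 were higher in the anterior palate without overlap (-2.165, -0.64, -0.69 and -0.25). Spry1 was higher in the posterior palate (0.33), and Spry4, at -0.46, overlapped. Scx, at 1.02, differed between the regions in the direction opposite to Etv4, Etv5, Dusp6 and Spry2. Etv4, Etv5, Dusp6, Spry4 and Spry2 had their highest value, 51.4, 55.4, 170, 48.8 and 42.1 CPM, in anterior replicate 3, which also had the highest anterior Scx. Spry1 was highest in posterior replicate 2, at 49.5 CPM against 41.9 CPM in anterior replicate 3. Of 12 other genes linked to tendon 5 were called, 2 of them higher in the anterior palate. Six2, a homeobox gene of head mesenchyme, was among the latter (-0.87, SE 0.20, adjusted p = 0.0415, edgeR). Pdgfra, Htra3 and Cilp were higher in the posterior palate (1.06, 0.94 and 1.27). Without posterior replicate 1, 10 of the TGF-beta and FGF genes and 8 of the other tendon-linked genes were called, against 1 to 2 of each without any other single library.

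Genes whose profile over the 6 libraries lay closest to each member were found among genes with a mean of at least 10 CPM, by the root mean square difference of centred log2 CPM. For Tnmd these were Foxf1, Fendrr and Mmp9, at 0.24, 0.26 and 0.28. Foxf1 is a forkhead gene of palatal mesenchyme and Fendrr the noncoding RNA beside it, and Foxf1 had a mean of 102 CPM in the anterior and 19.6 CPM in the posterior palate. For Thbs4 they were Ncam2, Foxp2 and Col12a1 (0.41, 0.47 and 0.49), and for Scx Begain, Rspo3 and Tgfb2 (0.23, 0.31 and 0.34). For Mkx they were Prx, Col27a1 and Tnfrsf21 (0.032, 0.038 and 0.050), for Tnc Sort1, Ice2 and P3h1 (0.035, 0.044 and 0.047), for Egr1 Tril, Pianp and Agap2 (0.15, 0.17 and 0.20), and for Egr2 Dlx2, Sema7a and Lef1 (0.38, 0.49 and 0.55). With 6 libraries, many genes of a like difference between regions come close to a member, so that these names describe likeness of level only.

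Markers of other tissues of the dissection were read for the whole lists. Of 7 cartilage genes tested 4 were higher in the posterior palate, among them Col2a1, with 67.6 to 101 CPM in the anterior and 397 to 571 CPM in the posterior libraries, and the summed list was 249 to 347 CPM in the anterior and 579 to 963 CPM in the posterior palate. Matn1, Matn3 and Snorc, genes of mature cartilage, were below 1 CPM in each library. Of 7 osteoblast genes tested 1, Dmp1, was called, higher in the anterior palate, while 5 were higher there without overlap and the median log2 fold change was -1.35. DESeq2 called 4 of them, and edgeR called 4 with no low-count filter, 6 with the library-group term and 0 with the replicate block or with 10 counts required in every library. The osteoblast list summed to 1990 to 3593 CPM in the anterior palate and to 295, 511 and 1848 CPM in posterior replicates 1, 2 and 3. Of 8 glial genes 1, Erbb3, was called, higher in the posterior palate. Of 7 neuronal genes tested Nefl and Nefm were called, both higher in the posterior palate. Of 7 smooth muscle and pericyte genes tested 4 were called, with Acta2 and Tagln higher in the posterior and Rgs5 and Kcnj8 in the anterior palate. Of 8 epithelial genes 1, Trp63, was called, higher in the anterior palate. Of 8 endothelial, 8 myeloid and 8 red cell genes edgeR called 0, with 2, 5 and 0 of them at an unadjusted p below 0.05, and DESeq2 called 1, 0 and 0. Without posterior replicate 1 edgeR called 5, 3 and 7. In the fits without 1 library the number called was 1 to 6 for cartilage, 0 to 4 for osteoblasts, 1 to 5 for smooth muscle, 1 to 4 for neurons, 0 to 2 for glia and 0 to 3 for epithelium, each at its highest without posterior replicate 1, a count that osteoblasts and neurons also reached without posterior replicate 3. The part of these tissues in the levels of the tendon genes was not tested.

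**Figure D4:**
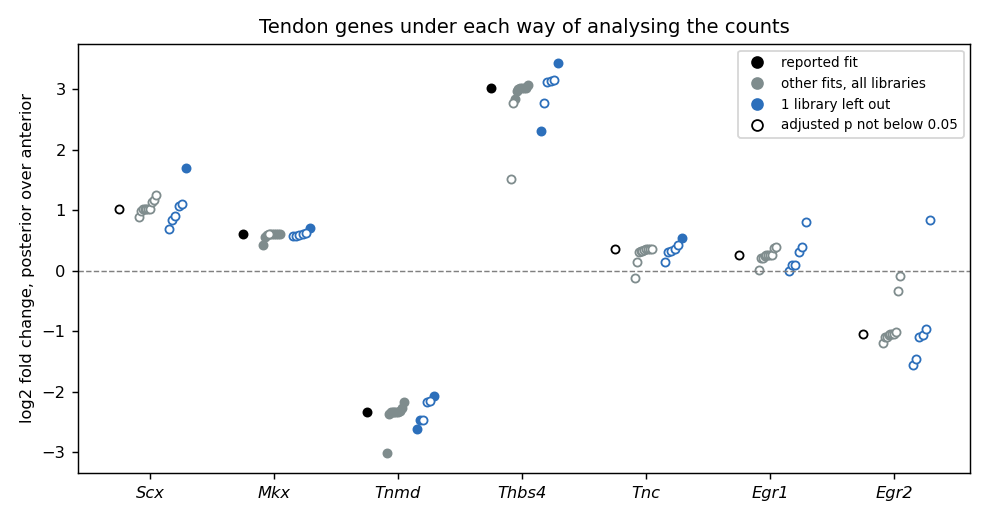
Log2 fold change of each tendon gene, posterior over anterior palate, in the reported fit (black), in the other fits with all libraries (grey) and with 1 library left out (blue), open where the adjusted p was not below 0.05. Tnmd stays between -3.02 and -2.08 and Mkx between 0.42 and 0.70, while Thbs4 runs from 1.51 to 3.42 and Egr2 changes sign without anterior replicate 3.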

How the data were processed

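The counts that the authors deposited are unnormalized reads per Ensembl gene of each library, unstranded and by strand. Their layout is that of STAR, whereas the methods and the submitters' processing notes name HISAT2, StringTie and DESeq2 1.30.1 with mm10. The annotation version is not given in the sources used here. Reverse-stranded counts, 19.0 to 23.1 times those of the other strand, were used. Multi-mapping (5.94% to 8.77%), unmapped (2.71% to 4.65%), ambiguous (1.84% to 1.99%) and unassigned (5.92% to 8.71%) reads stayed out of library sizes and tests. Symbols, positions and exon lengths came from GENCODE M21 (GRCm38), which paired 52073 identifiers when versions were ignored.

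Genes reaching 10 counts in 3 or more libraries were compared with edgeR 4.0.16 in R 4.3.3 (TMM, quasi-likelihood test, Benjamini-Hochberg, threshold 0.05), with region as the only term. Fits were tested on simulated data. The alternatives were DESeq2 1.42.0, limma-voom (limma 3.58.1), RLE and library-size scaling, no filter, 10 counts in every library, unstranded counts, a replicate block, a library-group term, a length correction (spline, 5 degrees of freedom) and leaving out each library. Profiles used log2 of CPM + 0.25. The members, lists and tests were chosen with earlier results of these data known, and the dental genes and the ratio to Scx after values were seen. Named were the 7 members, up to 4 called genes per list with the largest changes, family relatives, the 3 closest profiles and overlapping genes, and further genes named here were chosen after their values were seen. Within a region, replicates were further apart than counting noise. The chi-square per gene was 3.48 to 6.82 between anterior libraries and 9.52 between posterior replicates 2 and 3. Between posterior replicate 1 and posterior replicates 2 and 3 it was 54.0 and 69.0. Values of certain list genes are not reported here.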

Additional observations from a re-analysis of the deposited data

How the results depend on the processing

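The number of tendon genes called, 3, was 2 with limma-voom (Thbs4 2.77, adjusted p = 0.0865), the replicate block and the library-group term, and 0 to 4 in the fits without 1 library, lowest without anterior replicate 2 and highest without posterior replicate 1. The 1169 genes called over all became 2162 when low counts were kept and 1978 under DESeq2, and 498 to 7119 without 1 library, the highest without posterior replicate 1. The 60 called in the other lists became 29 to 107 without 1 library, and the 6 members lower relative to muscle without overlap became 6 to 7. Without 1 library, 0 to 12 collagens, 5 to 11 proteoglycan-list genes, 1 to 10 TGF-beta and FGF genes and 0 to 4 relatives of the members were called. A fit with fewer libraries has less power to call a gene, but the number called also depends on the spread between the libraries kept. The causes of the falls, and of the rise without posterior replicate 1, were not tested.

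Tnmd and Mkx kept their direction throughout, and Thbs4 and Scx likewise. Tnc changed sign with the library-group term (-0.12). Without 1 library Egr1 ran from -0.013 (without anterior replicate 1) to 0.81, and Egr2 from -1.57 to 0.83 (without anterior replicate 3). The adjusted p ranged from 7.08e-06 to 0.0625 for Tnmd, from 0.000287 to 0.0977 for Mkx, from 1.54e-07 to 0.107 for Thbs4 and from 0.0182 to 0.429 for Scx. The replicate numbers share only a number: deviations of same-numbered libraries correlated at -0.059, 0.020 and 0.034, and 2 of 6 libraries correlated best with their own number. With the replicate block 829 genes were called, and Mkx was not (0.60, adjusted p = 0.0512), which does not describe a weaker effect. Depth limits Tnmd in the posterior palate, which rests on 10 to 21 counts per library, and Egr2 in the anterior palate, on 10 to 135.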
